A study of Mus musculus with 4 samples.

Results

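The cell cycle genes described here are 40 of the 32285 genes in the deposited count matrices. They were taken by symbol from a list of well-known genes of dividing cells, and all 40 had at least 1 UMI in both libraries. A UMI (unique molecular identifier) marks 1 captured RNA molecule. By role, 14 members serve DNA synthesis in S phase: Mcm2, Mcm3, Mcm4, Mcm5, Mcm6 and Mcm7, the subunits of the replicative helicase, Pcna, the sliding clamp of the DNA polymerases, Tyms, Tk1, Rrm1 and Rrm2, enzymes that make DNA building blocks, and Hells, Uhrf1 and Pclaf, which act on replicating chromatin. Another 24 are mitotic genes: the cyclins Ccna2, Ccnb1 and Ccnb2 with their kinase Cdk1, the kinases Plk1, Aurka, Aurkb, Bub1 and Bub1b, the kinesins Kif11, Kif20a and Kif23, the centromere and kinetochore genes Cenpa, Cenpe, Cenpf and Spc25, the spindle genes Tpx2, Nusap1 and Prc1, Cdc20 and Ube2c of the machinery that degrades cyclins, Birc5, Top2a and Mki67. The other 2 are Stmn1, which destabilises microtubules, and Hmgb2, a chromatin protein.

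Genes of DNA synthesis are transcribed as a cell commits to replication, under E2F factors, and mitotic genes later, under the DREAM and MuvB complexes, which bind through a CHR element often near CCAAT boxes. In the lung, alveolar macrophages can renew themselves locally, conventional dendritic cells arise from dividing precursors, and activated T cells divide, whereas neutrophils are past division.

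Wild-type C57B6/J mice (WT) and Plaur–/– mice, which lack the receptor for urokinase (uPAR), had all received LPS and ovalbumin on days 0 and 7 and an ovalbumin aerosol on day 14. Digested lungs were sorted for CD45.2, a leukocyte surface protein, and 1 RNA library with 1 library of 5 antibody tags was made per genotype. The design names 8 mice per genotype, and how many entered each library, their age and the part of Plaur removed are not given in the sources used here. The labels call the material both circulating leukocytes and a whole-lung lysate, and Ptprc, which encodes CD45, was found in 96.3% and 95.8% of kept cells. Since each genotype has 1 library, no test between genotypes was run, and every interval below is a 95% interval of counting error only, without the spread between animals. UMIs of the members crowd in few cells, so the number of cells is given beside the sums. Wherever a pair of values is given, the WT-labelled library comes first, and ratios are KO-labelled over WT-labelled.

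The library labelled WT held 42913843 gene UMIs and 8683 kept cells (median 3208 UMIs), and the library labelled Plaur KO held 47442215 gene UMIs and 9587 kept cells (median 2776 UMIs). They are called WT-labelled and KO-labelled, because Plaur RNA stood at 526 and 456 CPM (UMIs of the gene among 1000000 UMIs of the cells summed). Whether the counted 3′ end of Plaur lies in the deleted part is not known, so the labels could not be checked this way. Cells were clustered without the cell cycle genes and named from marker genes. For the classes used here 7 to 11 markers were counted per cluster. The libraries shared 16 barcodes, and 1 of the 31 kept cells with such a barcode counted as dividing. Called doublets were removed, and among dividing cells they had made up 2.99% of the WT-labelled and 5.08% of the KO-labelled, against 2.92% and 4.50% among other cells.

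A cell counted as dividing when it held 2 or more UMIs of Mki67 and Top2a summed. Mki67 encodes Ki-67, which coats mitotic chromosomes, and Top2a the topoisomerase that untangles them. By this rule 260 of 8683 WT-labelled cells (2.99%, interval 2.65% to 3.37%) and 280 of 9587 KO-labelled cells (2.92%, interval 2.59% to 3.28%) were dividing. Outside neutrophils the shares were 4.03% and 4.42%, a ratio of 1.10 (interval 0.922 to 1.30). Neutrophils, which should lack these genes, had 2 of 2275 and 3 of 3315 such cells (0.0879% and 0.0905%) at a median of 1745 and 1731 UMIs.

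The other members were spread unevenly over these cells. Of the 106 WT-labelled cells with exactly 2 UMIs of Mki67 and Top2a, 42.5% carried any UMI of the 22 other mitotic members, against 31.5% of the 438 cells with 1 UMI, which the rule leaves out. In the KO-labelled library these shares were 40% of 85 cells and 33.3% of 427 cells. Cells with 4 or more UMIs, 125 WT-labelled and 160 KO-labelled, held a median of 103 and 114 UMIs of the 38 other members, against 3 to 5 in cells with 2 or 3. A count of 10 or more UMIs of the 22 other mitotic members, chosen after seeing the data and called mitotic-rich below, was met by 106 of the 260 WT-labelled dividing cells and 149 of the 280 KO-labelled ones, and by 5 and 2 cells outside the rule. Among dividing cells that were not mitotic-rich, 58.4% and 50.4% carried Mki67 without Top2a.

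**Figure D1:**
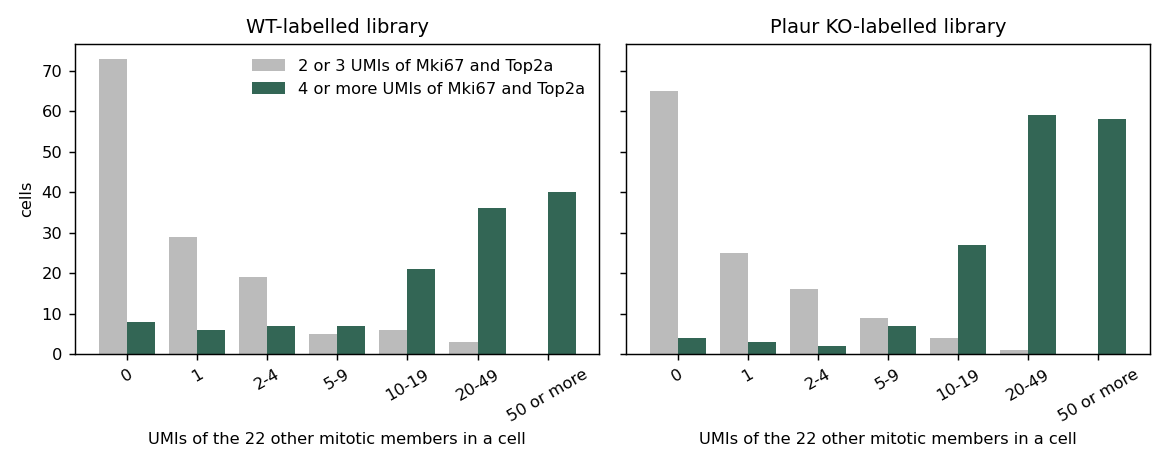
Number of dividing cells (vertical axis) by their UMIs of the 22 mitotic members other than Mki67 and Top2a (horizontal axis), for cells with 2 or 3 UMIs (grey) and 4 or more UMIs (green) of Mki67 and Top2a in each library. The grey bars are highest at 0 UMIs, with 73 WT-labelled and 65 KO-labelled cells, and the green bars at 20 UMIs and above.

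Conventional dendritic cells had the highest dividing shares of the myeloid classes in both libraries. In cDC1, the dendritic cells that cross-present antigen, 42 of 186 WT-labelled cells (22.6%, interval 16.8% to 29.3%) and 52 of 243 KO-labelled cells (21.4%, interval 16.4% to 27.1%) were dividing, a ratio of 0.948 (interval 0.619 to 1.46). Mitotic-rich cells were 26 of 186 (14.0%) and 39 of 243 (16.0%). In cDC2, which present antigen to CD4 T cells, 31 of 284 cells (10.9%, interval 7.54% to 15.1%) and 54 of 355 cells (15.2%, interval 11.6% to 19.4%) were dividing, a ratio of 1.39 (interval 0.880 to 2.24). Mitotic-rich cDC2 were 15 (5.28%) and 30 (8.45%), a ratio of 1.60 (interval 0.834 to 3.20). The intervals of all these ratios include 1. These cells were deep, with medians of 9686.5 and 9019 UMIs in cDC1 and 8305.5 and 7545 in cDC2, and deep cells reach 2 UMIs more readily. After thinning each cell to 1000 UMIs the dividing shares were 3.23% and 7.41% in cDC1 and 2.46% and 3.12% in cDC2, still above the 1 of 2168 (0.0461%) and 0 of 3138 (a limit of 0.0956%) in neutrophils, where 107 and 177 shallower cells were left out.

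**Figure D2:**
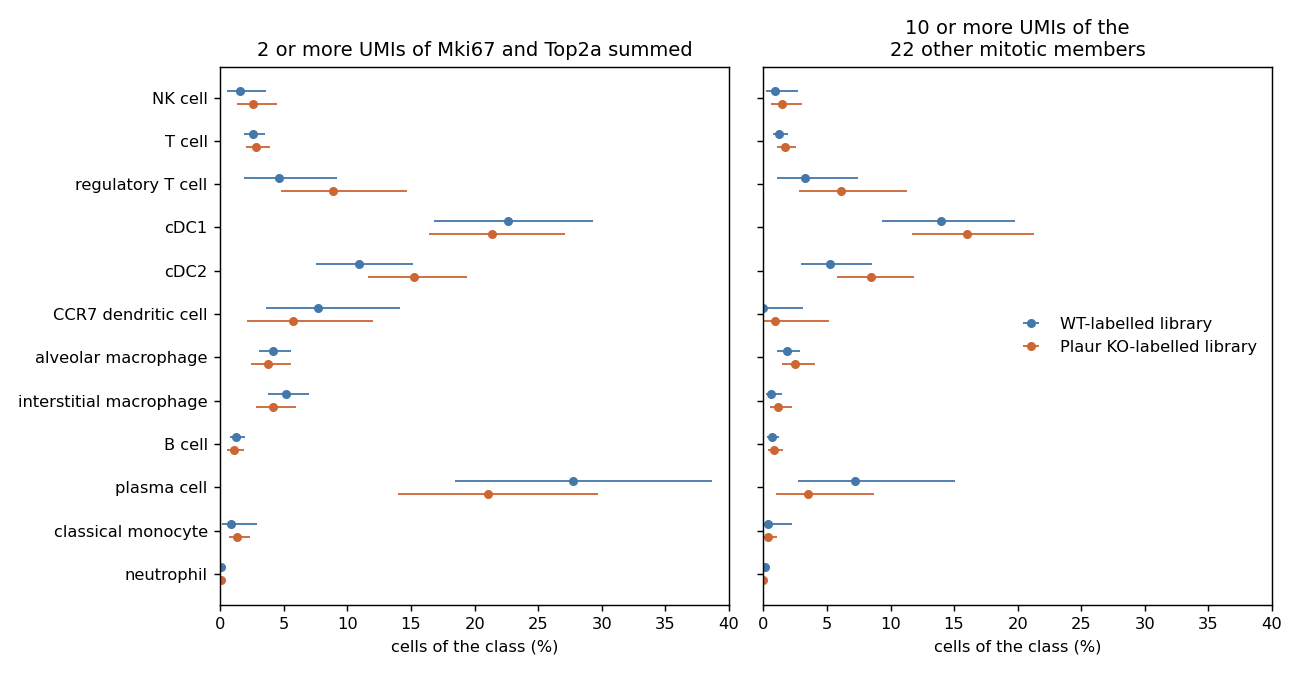
Share of cells of each class (horizontal axis, percent) that counted as dividing by Mki67 and Top2a (left) or were mitotic-rich by the 22 other mitotic members (right), as points with 95% counting intervals for the WT-labelled (blue) and KO-labelled (orange) library. The 2 intervals of a class overlap in every class shown, and interstitial macrophages, CCR7 dendritic cells and plasma cells lie far lower on the right.

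In KO-labelled cDC2 the mitotic members were higher, while the S phase members lay close to equal at full depth. Summed over the class, the 24 mitotic members stood at 406 CPM in the WT-labelled cells (971 UMIs in 116 cells) and 829 CPM in the KO-labelled cells (2369 UMIs in 146 cells), a log2 ratio of 1.03 (interval 0.92 to 1.14). Few cells made this mitotic sum. Of the UMIs of the 22 other mitotic members, 532 of 674 and 1536 of 1709 lay in the 15 and 30 mitotic-rich cDC2. Outside mitotic-rich cells these 22 members stood at 64.1 and 69.5 CPM. The 14 S phase members stood at 316 and 307 CPM, a log2 ratio of -0.04 (interval -0.18 to 0.10). Of the 23 mitotic members with at least 20 UMIs all 23 were higher, 9 of them at least 2-fold, where 2.92% of the 9597 genes tested were at least 2-fold higher. No S phase member was 2-fold apart, and 1.60% of genes were at least 2-fold lower. The median log2 ratio was 0.93 for the mitotic and -0.02 for the S phase members, and 0.02 for all genes tested. The log2 ratio of the mitotic sum went under 2-fold, to 0.81, with called doublets kept and to 0.62 with cells thinned to 1000 UMIs. That of the S phase sum was 0.25 with thinning, 0.16 with the cell cycle genes kept in the clustering and 0.15 at Leiden resolution 0.5.

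Cenpf, which binds kinetochores, had 22 UMIs in 7 WT-labelled cDC2 (9.19 CPM) and 151 UMIs in 28 KO-labelled cDC2 (52.9 CPM), a log2 ratio of 2.52 (interval 1.87 to 3.24). Ube2c, the enzyme that passes ubiquitin to cyclins, had 54 UMIs in 13 cells (22.6 CPM) and 323 in 35 cells (113 CPM). Ccnb1, the cyclin of mitotic entry, had 8 UMIs in 5 cells (3.34 CPM) and 36 in 15 cells (12.6 CPM). For each of these genes the KO-labelled library had both more UMIs and more cells that carried them. Mki67 stood at 65.2 and 114 CPM (log2 ratio 0.80) and Top2a at 58.9 and 117 CPM (0.99). Rrm2, Hells and Mcm7 had the lowest ratios of the members in cDC2. Rrm2, the regulated subunit of ribonucleotide reductase, had 10.4 and 6.65 CPM (log2 ratio -0.65, interval -1.59 to 0.27), Hells, a chromatin remodeller, 7.1 and 5.25 CPM, and Mcm7 16.3 and 12.6 CPM. Pcna, at 96.9 and 75.6 CPM, was lower in the KO-labelled cDC2 by less than 1.5-fold (log2 ratio -0.36, interval -0.63 to -0.08). Mcm5 was less than 1.5-fold apart, with 20.1 and 23.1 CPM.

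The promoters of the 3 highest and the 3 lowest members in cDC2 are shown as the 250 bases before the annotated start, 5′ to 3′ on the gene's strand, from RefSeq on GRCm38.p6, the assembly that mm10 names. Capitals mark TTTGAA or TTTAAA (the CHR letters), CCAAT, and TTCCCGC or TTGGCGC (E2F-type letters), each on either strand. The entry for Mcm7 is the first of its promoters listed. The windows are chr1:189688087-189688336 (minus strand) for Cenpf, chr2:164769679-164769928 (plus) for Ube2c, chr13:100786487-100786736 (minus) for Ccnb1, chr12:24708004-24708253 (plus) for Rrm2, chr19:38930740-38930989 (plus) for Hells and chr5:138171884-138172133 (minus) for Mcm7.
Cenpf: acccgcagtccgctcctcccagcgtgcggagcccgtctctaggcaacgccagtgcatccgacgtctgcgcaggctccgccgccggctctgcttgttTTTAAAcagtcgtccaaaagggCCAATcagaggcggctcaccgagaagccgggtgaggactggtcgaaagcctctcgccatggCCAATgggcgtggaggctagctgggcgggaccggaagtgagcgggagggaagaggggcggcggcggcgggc
Ube2c: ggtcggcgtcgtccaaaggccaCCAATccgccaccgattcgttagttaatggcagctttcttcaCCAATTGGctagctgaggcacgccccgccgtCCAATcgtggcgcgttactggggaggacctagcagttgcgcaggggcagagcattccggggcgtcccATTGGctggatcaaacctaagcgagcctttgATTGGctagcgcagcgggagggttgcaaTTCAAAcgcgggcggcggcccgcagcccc
Ccnb1: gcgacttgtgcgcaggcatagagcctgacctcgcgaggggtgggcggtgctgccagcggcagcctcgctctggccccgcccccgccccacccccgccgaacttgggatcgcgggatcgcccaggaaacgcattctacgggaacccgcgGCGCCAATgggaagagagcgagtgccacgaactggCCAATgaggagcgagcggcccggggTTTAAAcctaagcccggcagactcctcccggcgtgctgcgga
Rrm2: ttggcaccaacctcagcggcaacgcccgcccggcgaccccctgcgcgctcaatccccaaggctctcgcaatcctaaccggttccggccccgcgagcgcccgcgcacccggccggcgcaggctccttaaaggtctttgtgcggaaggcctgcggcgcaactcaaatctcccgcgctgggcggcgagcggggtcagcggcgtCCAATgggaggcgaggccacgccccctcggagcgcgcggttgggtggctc
Hells: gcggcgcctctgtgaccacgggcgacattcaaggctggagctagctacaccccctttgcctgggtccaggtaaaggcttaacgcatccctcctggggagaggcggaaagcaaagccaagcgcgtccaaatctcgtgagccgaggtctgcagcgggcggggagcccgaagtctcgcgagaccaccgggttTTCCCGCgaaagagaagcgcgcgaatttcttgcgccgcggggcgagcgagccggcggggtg
Mcm7: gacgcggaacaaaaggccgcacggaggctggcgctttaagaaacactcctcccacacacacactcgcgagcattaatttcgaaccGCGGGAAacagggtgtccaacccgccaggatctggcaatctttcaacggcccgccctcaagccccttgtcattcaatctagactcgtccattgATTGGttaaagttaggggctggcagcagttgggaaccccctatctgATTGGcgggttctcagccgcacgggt
In these windows CHR letters occur once each before Cenpf, Ube2c and Ccnb1, and nowhere before Rrm2, Hells and Mcm7. CCAAT letters occur 6 times before Ube2c, 2 times each before Cenpf, Ccnb1 and Mcm7, once before Rrm2 and not before Hells. An E2F-type match lies before Hells, Mcm7 and Ccnb1, and the one before Ccnb1 overlaps a CCAAT match. Of the 40 members 34 matched a RefSeq promoter entry (not Mcm4, Tpx2, Stmn1, Kif20a, Ccna2 and Aurkb). CHR letters were in 12 of 20 mitotic and 3 of 13 S phase windows, and in 25.5% of the 27025 windows of all genes. At least 2 CCAAT matches were in 12 of 20, 6 of 13 and 10.5%. E2F-type letters were in 3 of 20, 6 of 13 and 5.71%. A match describes letters and is not a measured binding site.

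In cDC1 the mitotic sum was higher and the S phase sum lower in the KO-labelled library, the latter close to equal after thinning. The mitotic sum stood at 859 CPM (1583 UMIs in 88 cells) and 1169 CPM (2702 UMIs in 122 cells), a log2 ratio of 0.44 (interval 0.35 to 0.54), and the S phase sum at 592 and 476 CPM, a log2 ratio of -0.32 (interval -0.44 to -0.19). With cells thinned to 1000 UMIs these log2 ratios were 0.62 for the mitotic and -0.023 for the S phase sum, and the S phase sum had -0.16 when each library lost its 5 cells richest in S phase UMIs. Of the UMIs of the 22 other mitotic members, 1033 of 1124 and 1817 of 1953 lay in the 26 and 39 mitotic-rich cDC1. Outside mitotic-rich cells these 22 members stood at 62.4 and 76.0 CPM. Of 24 mitotic members 22 were higher in the KO-labelled cells and 3 at least 2-fold, where 2.05% of the 9053 genes tested were at least 2-fold higher. Of 14 S phase members 11 were lower and 2 at least 2-fold, where 1.82% of genes were at least 2-fold lower. Plk1, a kinase of mitotic entry and exit, had 7 UMIs in 7 cells (3.80 CPM) and 29 in 18 cells (12.5 CPM), a log2 ratio of 1.72 (interval 0.50 to 3.16). Cdc20, which activates the ubiquitin ligase that ends mitosis, stood at 8.68 and 20.3 CPM (1.23), and Cenpf at 30.9 and 63.6 CPM (1.04). Tk1, thymidine kinase, had 27 UMIs in 19 cells (14.6 CPM) and 13 in 12 cells (5.62 CPM), a log2 ratio of -1.38 (interval -2.46 to -0.38). Hells stood at 33.6 and 14.7 CPM (-1.19) and Rrm2 at 35.8 and 19.5 CPM (-0.88), while Pcna (101 and 103 CPM), Mcm5 (26.6 and 22.5 CPM), Mki67 (136 and 163 CPM) and Top2a (113 and 161 CPM) were less than 1.5-fold apart.

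**Figure D3:**
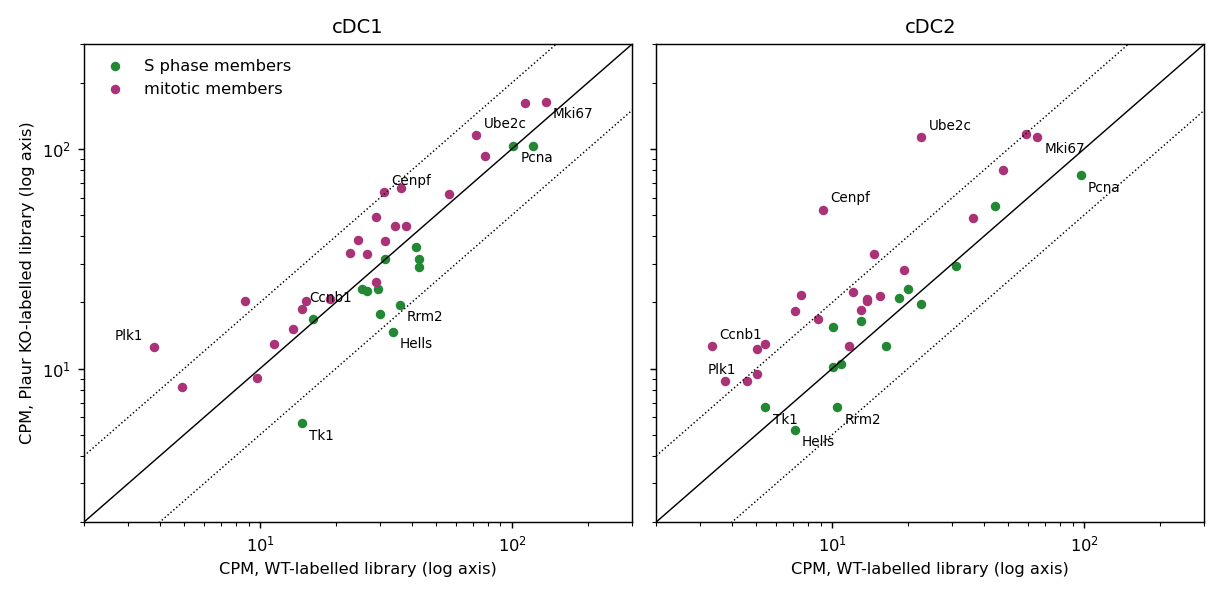
Level of each member with at least 20 UMIs in the KO-labelled (vertical, CPM, log axis) against the WT-labelled library (horizontal, CPM, log axis), for cDC1 and cDC2, with S phase members in green and mitotic members in purple. The solid line marks equal levels and the dotted lines a 2-fold difference, with Cenpf, Ube2c and Ccnb1 above the upper dotted line in cDC2 and Tk1 and Hells below the lower one in cDC1.

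Other lists of cell cycle genes were read in the same way. Of 58 other mitotic genes, 46 had at least 20 UMIs in cDC2, 45 of them higher in the KO-labelled cells (12 at least 2-fold) with a median log2 ratio of 0.69. In cDC1 54 were measured, 42 of them higher (7 at least 2-fold and 1 at least 2-fold lower) with a median of 0.33. Ect2, which starts the cleavage furrow, stood at 5.43 and 14.0 CPM in cDC2 and Anln, anillin, at 8.68 and 19.03 CPM in cDC1. Of 42 other S phase genes 33 of 40 measured were lower in cDC1 (2 at least 2-fold, median -0.33), against 16 of 30 in cDC2 (median -0.01). Among cell cycle entry genes, Ccnd1, cyclin D1, was at 175 and 244 CPM in cDC1 and 75.6 and 134 CPM in cDC2, and Ccnd2, cyclin D2, at 241 and 155 CPM in cDC1. Of the inhibitors, Cdkn1a (p21) stood at 356 and 248 CPM in cDC1. The inhibitor list as a whole had 10 of 19 genes higher in cDC1 and 14 of 20 in cDC2, and the entry list 8 of 16 and 8 of 15.

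Within dividing cells of both dendritic classes, S phase UMIs were fewer per mitotic UMI in the KO-labelled library. In cDC1 there were 0.871 S phase UMIs per UMI of the 22 other mitotic members in dividing cells of the WT-labelled library and 0.410 in those of the other, and in cDC2 0.709 and 0.312. This was not particular to dendritic cells. The ratio was also lower in alveolar macrophages (0.840 and 0.508), interstitial macrophages (0.768 and 0.434), regulatory T cells (0.728 and 0.550) and B cells (0.388 and 0.268). It was higher in NK cells (0.491 and 1.04, from 5 and 12 dividing cells), T cells as a whole (0.641 and 0.755) and plasma cells (0.328 and 0.504). Among T cells it was higher in the clusters led by Tnfsf8 and Farp1 (0.633 and 3.26) and by Cd8a and Ifng (0.549 and 1.18). In the 6 and 4 mitotic-rich plasma cells the ratio was 0.279 and 0.286. Mitotic-rich cells gave 0.724 and 0.329 in cDC1 and 0.571 and 0.260 in cDC2, but they were chosen by the 22 members that the ratio divides by. Cells with 10 or more UMIs of either the S phase or the 22 mitotic members gave 0.898 and 0.467 in cDC1 and 0.818 and 0.337 in cDC2. With S-rich for 10 or more S phase UMIs, cDC1 held 8 and 12 cells that were S-rich only, 17 and 22 rich in both, and 9 and 17 mitotic-rich only. In cDC2 these were 6 and 8, 10 and 15, and 5 and 15. The cells rich in mitotic members only differed most in number, and in cDC2 they are 5 and 15 cells. Thinned to 1000 UMIs, 7 and 11 dividing cDC2 were left, with a log2 ratio of S phase to mitotic UMIs of 0.63, the opposite direction.

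CCR7 dendritic cells, activated cells on their way to lymph nodes, met the rule almost without other mitotic members. By Mki67 and Top2a 9 of 117 (7.69%) and 6 of 105 (5.71%) were dividing, but 0 and 1 of them were mitotic-rich, and 0 of 117 allows a share of up to 2.56%. The mitotic sum was at 107 and 104 CPM, a log2 ratio of -0.05 (interval -0.49 to 0.39). It was 0.74 with cells thinned to 1000 UMIs and -0.62 when each library lost its 5 cells richest in mitotic UMIs, in opposite directions. Only 8 members reached 20 UMIs. None was at least 2-fold lower, where 5.74% of 6692 genes were, and 2 were at least 2-fold higher, where 1.99% of genes were. These were Uhrf1, which guides DNA methylation at replication, with 8 UMIs in 7 cells and 17 in 10 cells (8.09 and 23.2 CPM), and Stmn1, with 9 UMIs in 6 cells and 17 in 6 cells.

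**Figure D4:**
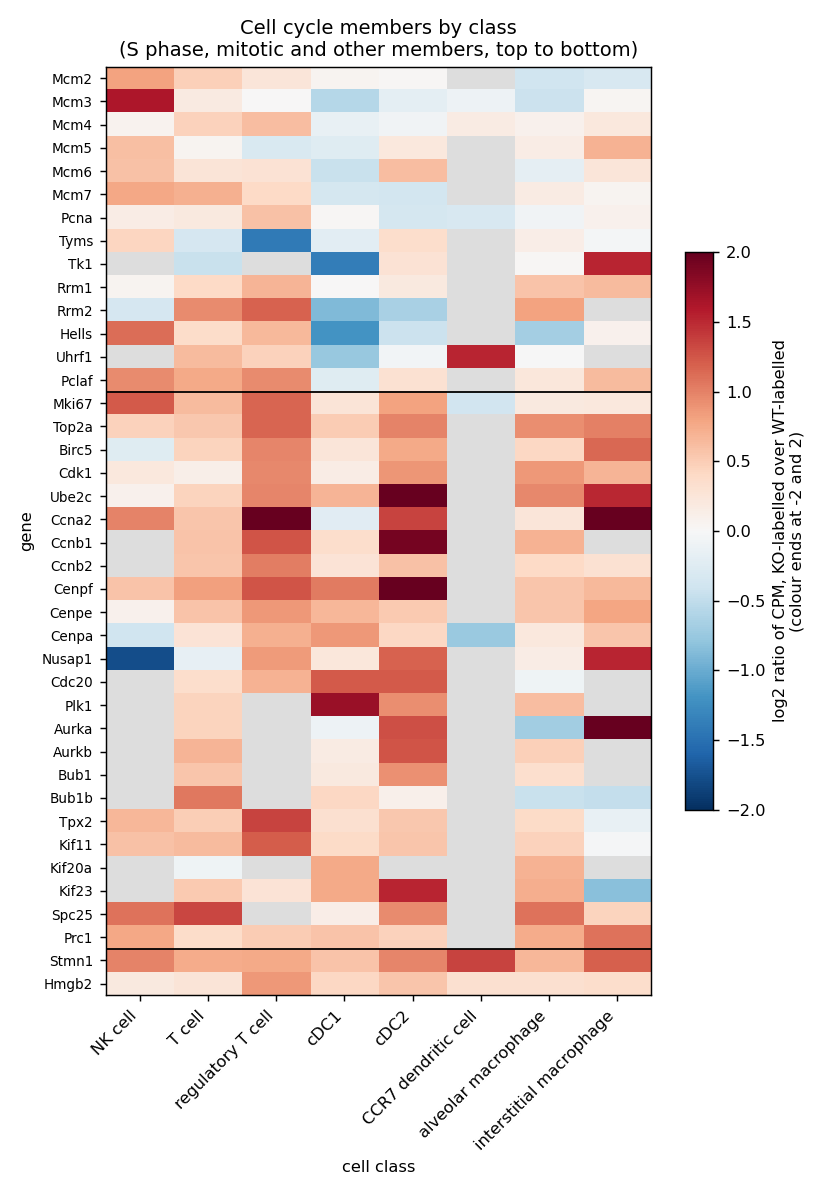
Log2 ratio of CPM, KO-labelled over WT-labelled, of each member (rows, grouped as S phase, mitotic and other genes) in 8 cell classes (columns), with grey for members under 20 UMIs. The mitotic members that reached 20 UMIs are all red in cDC2 (23 of 24) and in regulatory T cells (17 of 24), S phase rows are mostly blue in cDC1, and most members are grey in CCR7 dendritic cells.

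Alveolar macrophages, the phagocytes of the air spaces, had 43 of 1034 dividing cells in the WT-labelled (4.16%, interval 3.03% to 5.56%) and 24 of 637 in the KO-labelled library (3.77%, interval 2.43% to 5.55%), a ratio of 0.906 (interval 0.526 to 1.53). With cells thinned to 1000 UMIs 11 of 1030 (1.07%) and 11 of 622 (1.77%) were dividing, a log2 ratio of 0.73, and with the cell cycle genes kept in the clustering the log2 ratio of the share was -1.15, so its direction depended on the setting. Mitotic-rich cells were 19 (1.84%) and 16 (2.51%), and S-rich only cells 19 and 5. The S phase sum was at 272 and 272 CPM, with a log2 ratio of 0.38 after thinning, and the mitotic sum stood at 246 CPM (2015 UMIs in 546 cells) and 302 CPM (1251 UMIs in 248 cells), a log2 ratio of 0.30 (interval 0.19 to 0.40). Without each library's 5 cells richest in mitotic UMIs the ratio was 0.10, and with the cycle genes clustered, which moves cells between classes, it was -0.35, the opposite direction. Of 24 mitotic members 21 were higher, 1 at least 2-fold, where 1.32% of 10796 genes were, and no member was at least 2-fold lower, where 1.55% of genes were. That gene, Spc25 of the kinetochore, had 28 UMIs in 17 cells and 30 in 18 cells (3.42 and 7.24 CPM). Ube2c stood at 8.54 and 16.7 CPM, Top2a at 17.8 and 34.0 CPM, Mki67 at 35.6 and 40.8 CPM, Pcna at 121 and 116 CPM and Mcm5 at 6.10 and 6.76 CPM. The lowest ratios were those of Aurka (1.95 and 1.21 CPM), Hells (8.54 and 5.31 CPM) and Bub1b (71.9 and 52.9 CPM). Outside dividing cells 37.5% and 23.2% of alveolar macrophages carried a UMI of Bub1b, so the mitotic sum is in part that gene. Of the inhibitors, Klf2, which holds cells in quiescence, stood at 48.3 and 98.5 CPM and Cdkn1a at 214 and 339 CPM, and of the entry genes Myc at 21.0 and 34.5 CPM.

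Interstitial macrophages, which sit in the lung tissue, had 41 of 791 (5.18%, interval 3.74% to 6.97%) and 29 of 697 (4.16%, interval 2.80% to 5.92%) dividing cells, a ratio of 0.803 (interval 0.481 to 1.32). Mitotic-rich cells were far fewer, 5 (0.632%) and 8 (1.15%), with a ratio of 1.82 (interval 0.524 to 7.05), so the order of the libraries turned with the measure. In the cluster led by Gpnmb and Syngr1, 30 of 533 and 14 of 305 cells were dividing by Mki67 and Top2a. Of these, 24 and 13 held no UMI of the 22 other mitotic members, and 2 and 0 were mitotic-rich. Mki67 stood there at 30.7 and 28.6 CPM and Top2a at 3.09 and 2.99 CPM. In the cluster led by Ccl12 and Ccl8, 11 of 258 and 15 of 392 cells were dividing, and 3 and 8 were mitotic-rich. The mitotic sum had a log2 ratio of -0.66 (interval -0.97 to -0.36) in the Gpnmb cluster and 0.61 (interval 0.40 to 0.82) in the Ccl12 cluster, and the difference between them was not tested. Few cells made these sums. In the Gpnmb cluster 106 of 235 WT-labelled UMIs of the 22 other mitotic members lay in the 2 mitotic-rich cells. Outside mitotic-rich cells these members stood there at 26.8 and 20.5 CPM. In the Ccl12 cluster 122 of 174 and 349 of 400 such UMIs lay in the 3 and 8 mitotic-rich cells. Ube2c in the Ccl12 cluster had 14 UMIs in 3 cells and 57 in 7 cells.

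Over both clusters the mitotic sum was at 107 and 160 CPM, a log2 ratio of 0.58, and 0.24 without each library's 5 cells richest in mitotic UMIs, 0.16 with the cell cycle genes kept in the clustering and 0.10 with thinning. The S phase sum was at 172 and 191 CPM (0.15, interval 0.02 to 0.28). Of 18 mitotic members 14 were higher, 7 at least 2-fold, and of 12 S phase members 10 were higher, 1 at least 2-fold, where 1.87% of 10860 genes were, and none was at least 2-fold lower, where 2.62% of genes were. Ccna2, cyclin A, had 5 UMIs in 3 cells and 16 in 10 cells (0.778 and 3.58 CPM), Aurka, a spindle pole kinase, 6 in 6 cells and 18 in 11 cells, and Tk1 7 in 5 cells and 14 in 9 cells. Top2a stood at 11.0 and 22.2 CPM, Mki67 at 32.4 and 37.6 CPM, Pcna at 92.7 and 98.3 CPM and Mcm5 at 3.73 and 6.05 CPM. Kif23 (4.82 and 2.69 CPM), Bub1b (6.22 and 4.48 CPM) and Mcm2 (6.69 and 5.38 CPM) had the lowest ratios. Among entry genes E2f2 was at 11.98 and 4.70 CPM, and among inhibitors Ccng2 at 9.80 and 4.03 CPM.

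NK cells, lymphocytes that kill infected cells, had 5 of 318 (1.57%, interval 0.512% to 3.63%) and 12 of 466 (2.58%, interval 1.34% to 4.45%) dividing cells at medians of 2827 and 2373.5 UMIs. The ratio was 1.64 (interval 0.537 to 5.93), which includes 1. Mitotic-rich cells were 3 and 7, and S-rich only cells 1 and 7. The S phase sum stood at 428 CPM (419 UMIs in 177 cells) and 597 CPM (735 UMIs in 258 cells), a log2 ratio of 0.48 (interval 0.30 to 0.66), and the mitotic sum at 320 CPM (70 cells) and 419 CPM (86 cells), a log2 ratio of 0.39 (interval 0.18 to 0.59). Without Mki67 and Top2a, which chose the dividing cells, the 22 other mitotic members stood at 239 and 275 CPM. Their log2 ratio was 0.20 (interval -0.05 to 0.45), which includes 0. Of the mitotic UMIs 75.1% and 82.7% lay in the 5 and 12 dividing cells, and of those of the 22 other members 73.9% and 79.3%. Without each library's 5 cells richest in mitotic UMIs, which takes as many cells as the WT-labelled library had dividing, the mitotic log2 ratio was 0.97, and with at most 5% mitochondrial UMIs per cell it was 0.13.

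Of 12 S phase members with at least 20 UMIs in NK cells 11 were higher in the KO-labelled library, 2 at least 2-fold, and of 14 mitotic members 11 were higher, 2 at least 2-fold, where 1.56% of 8118 genes were at least 2-fold higher. Mcm3 had 14 UMIs in 13 cells (14.3 CPM) and 54 in 37 cells (43.9 CPM), a log2 ratio of 1.62 (interval 0.75 to 2.58). Mki67 had 33 UMIs in 5 cells (33.7 CPM) and 97 in 18 cells (78.8 CPM), and Hells 11 in 9 cells and 30 in 18 cells. Nusap1, which bundles spindle microtubules, went the other way with 19 UMIs in 5 cells (19.4 CPM) and 7 in 5 cells (5.69 CPM), the single member at least 2-fold lower, where 1.60% of genes were. Cenpa stood at 40.9 and 30.9 CPM, Rrm2 at 16.4 and 13 CPM, Pcna at 127 and 140 CPM, Top2a at 47.0 and 65.0 CPM and Mcm5 at 20.4 and 30.9 CPM. Outside the members Lig1, the ligase of replicated strands, was at 15.3 and 32.5 CPM. The other lists had medians of 0.12 (other S phase), 0.25 (other mitotic), 0.22 (entry), 0.21 (inhibitors) and 0.02 for all genes tested.

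T cells, described with regulatory T cells and without a cluster of 21 KO-labelled cells led by Rag1 and Dntt, were read as a whole first. Of them 39 of 1516 (2.57%, interval 1.84% to 3.50%) and 36 of 1274 (2.83%, interval 1.99% to 3.89%) were dividing, a ratio of 1.10 (interval 0.679 to 1.77), and 19 and 22 were mitotic-rich. The mitotic sum stood at 350 CPM (1873 UMIs in 374 cells) and 494 CPM (1945 UMIs in 307 cells), a log2 ratio of 0.50 (interval 0.41 to 0.59), and the S phase sum at 401 and 509 CPM (0.34, interval 0.26 to 0.43). Regulatory T cells, 153 and 147 of these cells, held 478 of the 1873 and 878 of the 1945 mitotic UMIs. The whole-class mitotic ratio is thus in part theirs. Of 24 mitotic members 22 were higher and 2 at least 2-fold, where 1.21% of 10923 genes were. Of 14 S phase members 12 were higher, and no member was at least 2-fold lower, where 1.47% of genes were. Spc25 had 22 UMIs in 15 cells and 41 in 25 cells (4.11 and 10.4 CPM), Bub1b, a checkpoint kinase, 19 in 15 cells and 29 in 18 cells, and Rrm2 stood at 8.22 and 15.7 CPM. Tk1 (6.54 and 4.83 CPM), Tyms (15.3 and 12.2 CPM) and Nusap1 (15.9 and 14.2 CPM) were lower by less than 1.5-fold. Mki67 stood at 51.0 and 79.0 CPM, Top2a at 52.9 and 76.7 CPM, Pcna at 96.0 and 109 CPM and Mcm5 at 19.99 and 20.8 CPM. Of other S phase genes 36 of 41 were higher (median 0.31) and of other mitotic genes 36 of 52 (median 0.22).

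The T cell clusters did not go one way. Regulatory T cells, which restrain other T cells, had 7 of 153 (4.58%, interval 1.86% to 9.2%) and 13 of 147 (8.84%, interval 4.79% to 14.6%) dividing cells, a ratio of 1.93 (interval 0.717 to 5.72), and 5 and 9 were mitotic-rich. Thinned to 1000 UMIs, 1 of 153 and 6 of 146 were dividing. Their mitotic sum stood at 864 CPM (478 UMIs in 45 cells) and 1795 CPM (878 UMIs in 54 cells), a log2 ratio of 1.05 (interval 0.89 to 1.22), and the S phase sum at 702 and 950 CPM (0.44). Of 17 mitotic members all 17 were higher, 8 at least 2-fold, and of 13 S phase members 11 were higher, 1 at least 2-fold, where 2.93% of 6548 genes were. Ccna2 had 6 UMIs in 2 cells (10.9 CPM) and 26 in 8 cells (53.1 CPM), Tpx2, a spindle assembly factor, 15 in 5 cells and 34 in 7 cells, and Cenpf 24 in 4 cells and 51 in 9 cells. Tyms, thymidylate synthase, went the other way with 30 UMIs in 15 cells and 10 in 6 cells (54.3 and 20.4 CPM), the single member at least 2-fold lower, where 2.83% of genes were. Mki67 stood at 130 and 292 CPM, Top2a at 112 and 251 CPM, Pcna at 103 and 155 CPM, Mcm5 at 50.6 and 40.9 CPM and Mcm3 at 63.3 and 63.4 CPM. The inhibitor Cdkn1a had 14 UMIs in 13 cells and 37 in 20 cells. Of the mitotic UMIs 90.2% and 94.1% lay in the dividing cells, and of those without Mki67 and Top2a 90.7% and 94.1%. With the cell cycle genes kept in the clustering the log2 ratio of the mitotic sum was 0.39, under 2-fold.

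The cluster led by Tnfsf8 and Farp1 had 15 of 339 and 8 of 298 dividing cells (4.42% and 2.68%), 8 and 3 of them mitotic-rich. The ratio of these shares was 0.607 (interval 0.223 to 1.52), which includes 1. The cluster's mitotic sum stood at 651 CPM (776 UMIs in 107 cells) and 267 CPM (239 UMIs in 92 cells), a log2 ratio of -1.29 (interval -1.50 to -1.08), while the S phase sum was at 519 and 560 CPM (0.11). Of the cluster's UMIs of the 22 other mitotic members, 432 of 528 and 61 of 154 lay in the 8 and 3 mitotic-rich cells. Tpx2 had 28 UMIs in 11 cells and 2 in 2 cells there, Cdk1 21 in 5 cells and 2 in 1 cell, and Cenpf 33 in 8 cells and 4 in 3 cells, while Mcm7 stood at 18.5 and 34.6 CPM. In the cluster led by Dapl1 and Sidt1, 0 of 363 WT-labelled cells (a limit of 0.826%) and 6 of 305 KO-labelled cells (1.97%, interval 0.725% to 4.23%) were dividing, with 4 of the 6 mitotic-rich. The interval of the ratio begins at 1.40, and at 0.789 with cells thinned to 1000 UMIs, where 0 of 362 and 4 of 303 were dividing. Its mitotic sum was 78 UMIs spread over 71 cells in the WT-labelled and 479 UMIs in 59 cells in the KO-labelled library (55.9 and 468 CPM). Mki67 was 0 UMIs and 84 UMIs in 7 cells, while Pcna stood at 83.2 and 84.0 CPM. The cluster led by Cd8a and Ifng had 17 of 269 and 8 of 163 dividing cells and a mitotic log2 ratio of -0.08 (interval -0.30 to 0.15). The cluster led by Igfbp4 and Lef1 had no dividing cell among 305 and 295, which allows up to 0.984% and 1.02%.

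**Figure D5:**
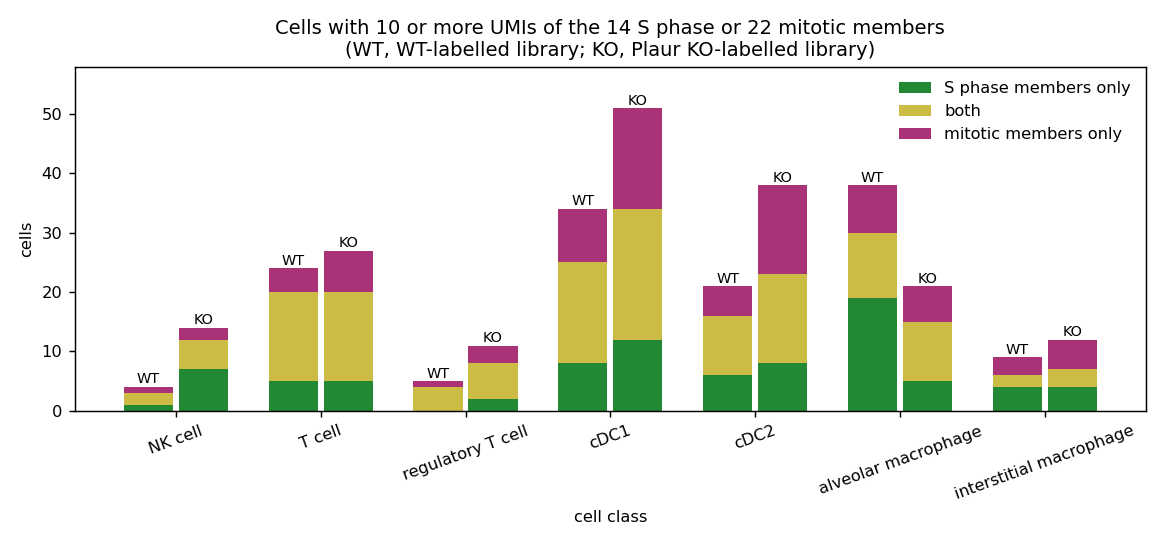
Number of cells (vertical axis) with 10 or more UMIs of the 14 S phase members only (green), of both sets (yellow) or of the 22 mitotic members other than Mki67 and Top2a only (purple), per class and library. In cDC2 the purple parts are 5 and 15 cells, in alveolar macrophages the green parts 19 and 5 cells, and in NK cells the green parts 1 and 7 cells.

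Outside these classes, plasma cells had 23 of 83 (27.7%) and 24 of 114 (21.1%) dividing cells at medians of 14183 and 12135 UMIs, and 6 and 4 mitotic-rich cells. B cells had 19 of 1494 and 12 of 1124 dividing cells, 10 and 8 of them mitotic-rich. Classical monocytes had 2 of 248 and 11 of 832, 1 and 3 of them mitotic-rich. These dividing monocytes held medians of 43346.5 and 27963 UMIs, against 7975.5 and 8999 in the other classical monocytes. In both libraries the dendritic, macrophage and T cell classes held most of the dividing cells. Alveolar macrophages made up 16.5% of the dividing cells of the WT-labelled library and 8.57% of those of the KO-labelled one, and cDC2 11.9% and 19.3%. The classes also differed in size, with alveolar macrophages at 1034 of 8683 and 637 of 9587 kept cells and cDC2 at 284 and 355. Within alveolar macrophages 4.16% and 3.77% of cells were dividing, and within cDC2 10.9% and 15.2%.

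The members differed in how far they were held to dividing cells. Ccna2 had 96.8% and 97.6% of its UMIs in dividing cells, Bub1 95.7% and 96.9%, Cenpf 95.7% and 94.9% and, among the S phase members, Pclaf, a partner of the clamp, 95.3% and 92.8% and Rrm2 88.4% and 90.0%. At the other end were Mcm4 with 16.9% and 16.3%, Kif23 with 17.5% and 20.7% and Pcna with 19.3% and 18.2%. Kif23, a kinesin of the spindle midzone, stood at 123 and 83.3 CPM in neutrophils outside dividing cells, with a UMI in 20.9% and 15.2% of those cells, and at 51.3 and 34.3 CPM in classical monocytes, but between 0.951 and 13.1 CPM in NK cells, T cells, regulatory T cells, cDC1, cDC2 and both classes of macrophages. Bub1b stood at 68.9 and 47.8 CPM in alveolar macrophages outside dividing cells, with a UMI in 37.5% and 23.2% of them, and at most at 4.91 CPM in NK cells, T cells, cDC1, cDC2, interstitial macrophages and neutrophils. Hmgb2 had a UMI in 80.0% and 80.4% of neutrophils outside dividing cells. A sum over members in neutrophils or alveolar macrophages is thus in part a sum of these genes.

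Some genes that the rule did not use differed between dividing cells and the other cells of their class. The cells were chosen by Mki67 and Top2a, so these are descriptions. Histone and tubulin genes were higher in dividing cells for 16 of 16 genes in T cells (median log2 ratio 3.01 and 2.68), cDC1 (2.58 and 3.02) and cDC2 (2.04 and 2.72). Of 19 inhibitor and quiescence genes 13 were lower in dividing T cells in both libraries, among them Btg1, which slows proliferation, at 822 against 1434 CPM in the WT-labelled and 457 against 1397 CPM in the KO-labelled cells, and Klf2. Cdkn2c, an inhibitor of the D-type cyclin kinases, was higher at 46.1 against 10.5 CPM and 71.0 against 10.0 CPM. Of the entry genes E2f2 stood at 74.4 against 10.6 CPM and 177 against 16.6 CPM, and Ccnd3, cyclin D3, at 117 against 401 CPM and 292 against 543 CPM. T cell clusters were pooled here, and those led by Igfbp4 and Lef1 and by Dapl1 and Sidt1 had no dividing WT-labelled cell. The Igfbp4 cluster had 1472 and 1589 CPM of Btg1, 1345 and 1253 of Klf2 and 614 and 761 of Ccnd3. Whether cluster make-up accounts for the differences in T cells was not tested. Dividing T cells held a median of 5598 and 6328 UMIs, against 3212 and 2803 in the others. Of the same inhibitor list, dividing cDC2 had 4 of 15 genes higher and 9 lower in both libraries. Dividing cDC1 had 5 and 4 of 17, and plasma cells 3 and 3 of 16. Alveolar macrophages had 9 and 5 of 18 and interstitial macrophages 6 and 7 of 17. Of the 5 surface antibodies, CD11b on cDC1 had means of 11.0 UMIs in dividing and 9.10 in other cells of the WT-labelled library and 14.2 and 8.66 in the KO-labelled one, while on cDC2 and T cells its ratio of dividing to other cells was 1.07 and 1.09, and 1.21 and 0.633. The cDC1 means are not scaled to depth. Dividing cDC1 held medians of 12552 and 12542.5 RNA UMIs, against 8914.5 and 8450 in the other cDC1.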

How the data were processed

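Whole-number UMI counts per gene and cell barcode, and per antibody tag, were used as deposited. They came from Cell Ranger 7.0.0 per the file headers, and the submitters' processing notes also name Cell Ranger 7.1.0 and the mm10 genome. Libraries were 10x 3′ v3.1, with 16000 cells loaded per the labels. A cell was kept with 200 or more genes and a mitochondrial share of 10% or less. Scrublet doublet calls (expected share 8%) were removed, and both libraries were clustered together (3000 variable genes without the cell cycle genes, 30 components, 15 neighbours, Leiden resolution 1, 30 clusters) with scanpy 1.11.5, pandas 2.3.3, NumPy 2.4.6, scikit-learn 1.9.0, SciPy 1.17.1 and matplotlib 3.10.9 under Python 3.11.15. A cluster was named where at least 3 markers of 1 of 26 sets were in at least 20% of its cells at 2-fold or more.

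Counts were summed per class and library and scaled to CPM. With 1 RNA library per genotype no test and no p-value is given. Shares have exact binomial (Clopper-Pearson), sums exact Poisson and ratios exact conditional intervals at 95%, for counting error only. Sums crowd in few cells, so their intervals are too narrow. A share of 0 is given with the limit that 3 counts allow. Differences of 2-fold among genes with at least 20 UMIs are counted, beside the same share of all genes tested. In each class with at least 100 cells per library the text names from the 3 highest and 3 lowest members with Mki67, Top2a, Pcna and Mcm5, and from up to 2 highest and 2 lowest genes of each other list at 50 or more UMIs. Exceptions named after their values were seen are the genes compared inside and outside dividing cells. The members and lists were chosen with earlier results of these data known. Of the histone and tubulin list, 6 symbols were not found. TMM factors (edgeR 4.0.16) and size factors (DESeq2 1.42.0, R 4.3.3) served as alternative scalings only. Only the interval of the ratios was tried on simulated data, with independent counts per gene at the class means of cDC2 and NK cells. That simulation had no crowding of UMIs in few cells.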

Additional observations from a re-analysis of the deposited data

Results flagged for a closer look

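The log2 ratio of the mitotic sum, KO-labelled over WT-labelled, went in opposite directions between T cell clusters. It was 3.06 in the cluster led by Dapl1 and Sidt1 and 1.05 in regulatory T cells, but -1.29 in the cluster led by Tnfsf8 and Farp1. In cDC2 it was 1.03. The intervals of counting error of these sums do not overlap between the clusters that went opposite ways. They are too narrow, since the UMIs crowd in few cells. Intervals of the ratio of dividing shares, which count cells, do overlap. They were 0.717 to 5.72 in regulatory T cells, 0.223 to 1.52 in the Tnfsf8 cluster, and from 1.40 up in the Dapl1 cluster. The differences between the clusters were not tested, since each genotype has 1 library.

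A T cell cluster led by Rag1 and Dntt, which cut and extend antigen receptor genes in developing lymphocytes, lay outside the comparisons because the WT-labelled library had no cell in it. Of its 21 KO-labelled cells 8 were dividing (38.1%). These 8 held 43 to 109 UMIs of the 22 other mitotic members each, and the other 13 cells held none. Single samples were not compared within groups, since each group has 1 library.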

How the results depend on the processing

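Values are log2 ratios, KO-labelled over WT-labelled. As reported, the S phase to mitotic ratio in dividing cells was 0.24 in T cells, -0.40 in regulatory T cells, -1.09 in cDC1, -1.19 in cDC2, -0.73 in alveolar and -0.82 in interstitial macrophages. With cells thinned to 1000 UMIs, this ratio turned in cDC2 to 0.63, from 7 and 11 dividing cells, and in regulatory T cells to 1.31, from 1 and 6, and was -0.77 in cDC1, -0.052 in alveolar and -0.14 in interstitial macrophages. The mitotic sum was then 0.64 in NK cells, 0.39 in T cells, 0.62 in cDC1, 0.62 in cDC2, 0.74 in CCR7 dendritic cells and 0.10 in interstitial macrophages. The S phase sum was 0.22 in T cells, 0.13 in regulatory T cells, -0.023 in cDC1, 0.25 in cDC2 and 0.38 in alveolar macrophages. The dividing share was 2.65 in regulatory T cells, 1.20 in cDC1 and 0.73 in alveolar macrophages, and the median of the mitotic members 0.39 in T cells, 0.20 in cDC1 and 0.36 in cDC2. With the cell cycle genes kept in the clustering, the mitotic sum was 0.72 in T cells, 0.39 in regulatory T cells, -0.35 in alveolar and 0.16 in interstitial macrophages. The S phase to mitotic ratio turned to -0.19 in T cells and to 4.74 in regulatory T cells, and was -0.84 in cDC2, -3.01 in alveolar and -0.34 in interstitial macrophages. The mitotic median was 0.68 in T cells, -0.17 in alveolar and 0.16 in interstitial macrophages, the dividing share -1.15 in alveolar macrophages and the S phase sum 0.16 in cDC2. Without the 5 cells per library with most UMIs of the list, the mitotic sum was 0.97 in NK cells, 2.25 in regulatory T cells (where this removes as many cells as the WT-labelled library had mitotic-rich), 1.54 in cDC2, -0.62 in CCR7 dendritic cells, 0.10 in alveolar and 0.24 in interstitial macrophages, and the S phase sum -0.16 in cDC1. With doublet calls kept, the mitotic sum was 0.81 in cDC2, and the S phase to mitotic ratio -0.89 in cDC2 and -0.43 in interstitial macrophages. With each library clustered alone, interstitial macrophages had 0.75 for the mitotic sum, 0.32 for the S phase sum and -0.31 for the ratio of both. Leiden resolution 0.5 gave 0.41 for their mitotic sum and 0.15 for the S phase sum of cDC2. At most 5% mitochondrial UMIs gave 0.13 for the mitotic sum of NK cells, and 10 or more UMIs of the 22 other mitotic members, chosen after seeing the data, gave 0.86 for the share of interstitial macrophages. The causes were not tested. Under TMM factors, DESeq2 size factors, a minimum of 500 genes per cell, thresholds of 1 or 3 UMIs and removal of shared barcodes, no value moved by more than its counting interval. No value could be had for shares of CCR7 dendritic cells with thinning, by the 22 members or with 1 UMI of each gene, for CCR7 dendritic and regulatory T cells at resolution 0.5, for regulatory T cells clustered alone, or for list medians with too few members left. No paired analysis was possible because each genotype has 1 RNA library. Lower depth per cell limits what the rule detects in lymphocytes.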
